A study of Homo sapiens with 3 samples.

Results

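The mTOR pathway genes described here were the 43 rows of the deposited expression table, out of 58302, whose symbols name subunits of the mTOR complexes, RHEB and the TSC complex, the Rag GTPases and Ragulator, GATOR1, GATOR2, KICSTOR, amino-acid sensors, the folliculin complex, or the S6 kinases, the 4E-BP proteins and PDK1. The genes were picked by name, with earlier results of these data known. All 43 were measured above the low-count filter. Expression was measured by RNA-seq in HCT116 cells, an established human colon carcinoma line, with 1 library for each of 3 transfections. The library NC had received a control siRNA, and the libraries si1 and si2 each a different siRNA against DUOX2, which encodes an NADPH oxidase that releases hydrogen peroxide. siRNA dose and time after transfection were not given in the sources used here, and the extraction text in the labels speaks of retinas.

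mTOR is a protein kinase that works in a pair of complexes. Complex 1, built around the scaffold RPTOR, promotes protein synthesis through the S6 kinases and the 4E-BP proteins, and complex 2, built around RICTOR, acts on AKT. Amino acids bring complex 1 to the lysosome, where the Rag GTPases, held by Ragulator and governed by GATOR1, GATOR2, KICSTOR and folliculin, dock it beside its activator RHEB, which the TSC complex restrains. In the gut epithelium the pathway couples cell growth to nutrient supply.

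The 3 siRNAs are shown because each library rests on 1 of them. They are written as RNA sense strands, with the bases that pair with the seed of the guide strand (its bases 2 to 8) in capitals.
siRNA 1: ggaggacaacaUAGUGGUu
siRNA 2: ccaugaugcgaUCCUUCAu
control siRNA: uucuccgaacgUGUCACGu
Both DUOX2 siRNAs match DUOX2 over all 19 bases, and the control siRNA has at least 7 mismatches to it. Read in either orientation, none came closer than 4 mismatches over the 19 bases to a transcript of any of the 43 genes. Matches to the seed alone were not searched, and no share of all genes was taken for this mismatch number. The 4 mismatches were reached by siRNA 1 in MAPKAP1 and SEH1L, by siRNA 2 in MTOR and RPTOR, and by the control siRNA in PRR5L.

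The libraries held 17589502 counts for the control, 19130768 for siRNA 1 and 18832672 for siRNA 2. DUOX2 itself had 2, 2 and 0 counts in that order, too few to check the labels by the targeted gene. Of 14 colorectal epithelial markers, 9 had over 3 counts in every library and 3 (CEACAM5, CDX1 and CDH17) were at 0. Of 10 retinal markers, 8 were at 0 in every library, CRX and RPE65 among them. The summed level of the epithelial markers ran to 6040 CPM (counts scaled to equal library size) in NC, 3710 in si1 and 5360 in si2, and its part in the results was not tested. The labels do not state whether the 2 siRNA libraries were separate cultures, and the 2 carried different siRNAs. Every p-value rests on the spread between those 2 libraries, which may be technical, drawn toward a value pooled over the genes tested. In edgeR's quasi-likelihood test, 1 residual degree of freedom stood beside 4.659 prior degrees of freedom from that pooling. The 1 control library is assumed to vary like the siRNA libraries. Both siRNA libraries were set against this same control library, so a value of the control enters both differences. In the sentences that follow, counts are in the order control, siRNA 1, siRNA 2, and a log2 difference is siRNA minus control in log2 CPM, for which a prior count of 2 was used.

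No mTOR pathway gene passed an adjusted p of 0.05 in edgeR's quasi-likelihood test with Benjamini-Hochberg adjustment over the 17263 genes tested, of which 0.0579% passed, 0.0174% higher and 0.0405% lower. The lowest adjusted p among the 43 was 0.113. At an unadjusted p under 0.05 there were 12 of the 43, or 27.9%, against 26% of all genes tested. Of those, 8 were lower with the siRNAs (AKT1S1, EIF4EBP1, LAMTOR2, MLST8, RPS6KB2, RPTOR, TSC2 and WDR24), against 14.5% of all genes, and 4 were higher (FNIP1, LAMTOR3, RRAGC and SESN3), against 11.5%. DESeq2 passed 3 of the 43, or 6.98%, EIF4EBP1 and RPTOR lower and SESN3 higher, against 3.28% of all genes (1.76% lower and 1.52% higher), and gave no adjusted p for 6. limma on log2(FPKM + 1) was run only on genes with a mean of at least 1 FPKM, which left out some of the 43, DEPTOR among them. It passed 0 of the rest, and no share of all genes was taken for it.

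The control library lay above both siRNA libraries for 22 of the 43 genes, or 51.2%, against 41.6% of all genes tested. It lay below both for 16, or 37.2%, against 41.9%. The median log2 fold change of the 43 was -0.10, and that of all genes tested 0.01. A distance of at least 2-fold from the control with both siRNAs was reached by 3 genes, or 6.98%, against 9.05% of all genes: SESN3 was higher, against 4% of all genes, and RPTOR and WDR24 were lower, against 5.05%. With siRNA 1 alone, 2 genes were at least 2-fold higher (DEPTOR and SESN3) and 6 lower (AKT1S1, EIF4EBP1, KPTN, RPS6KB2, RPTOR and WDR24), against 8.06% and 12.4% of all genes. With siRNA 2 alone, 1 was higher (SESN3) and 3 were lower (DEPTOR, RPTOR and WDR24), against 5.54% and 7.84%. Between the 2 siRNA libraries, 1 of the 43 (DEPTOR), or 2.33%, lay 2-fold or more apart, against 6.56% of all genes.

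**Figure D1:**
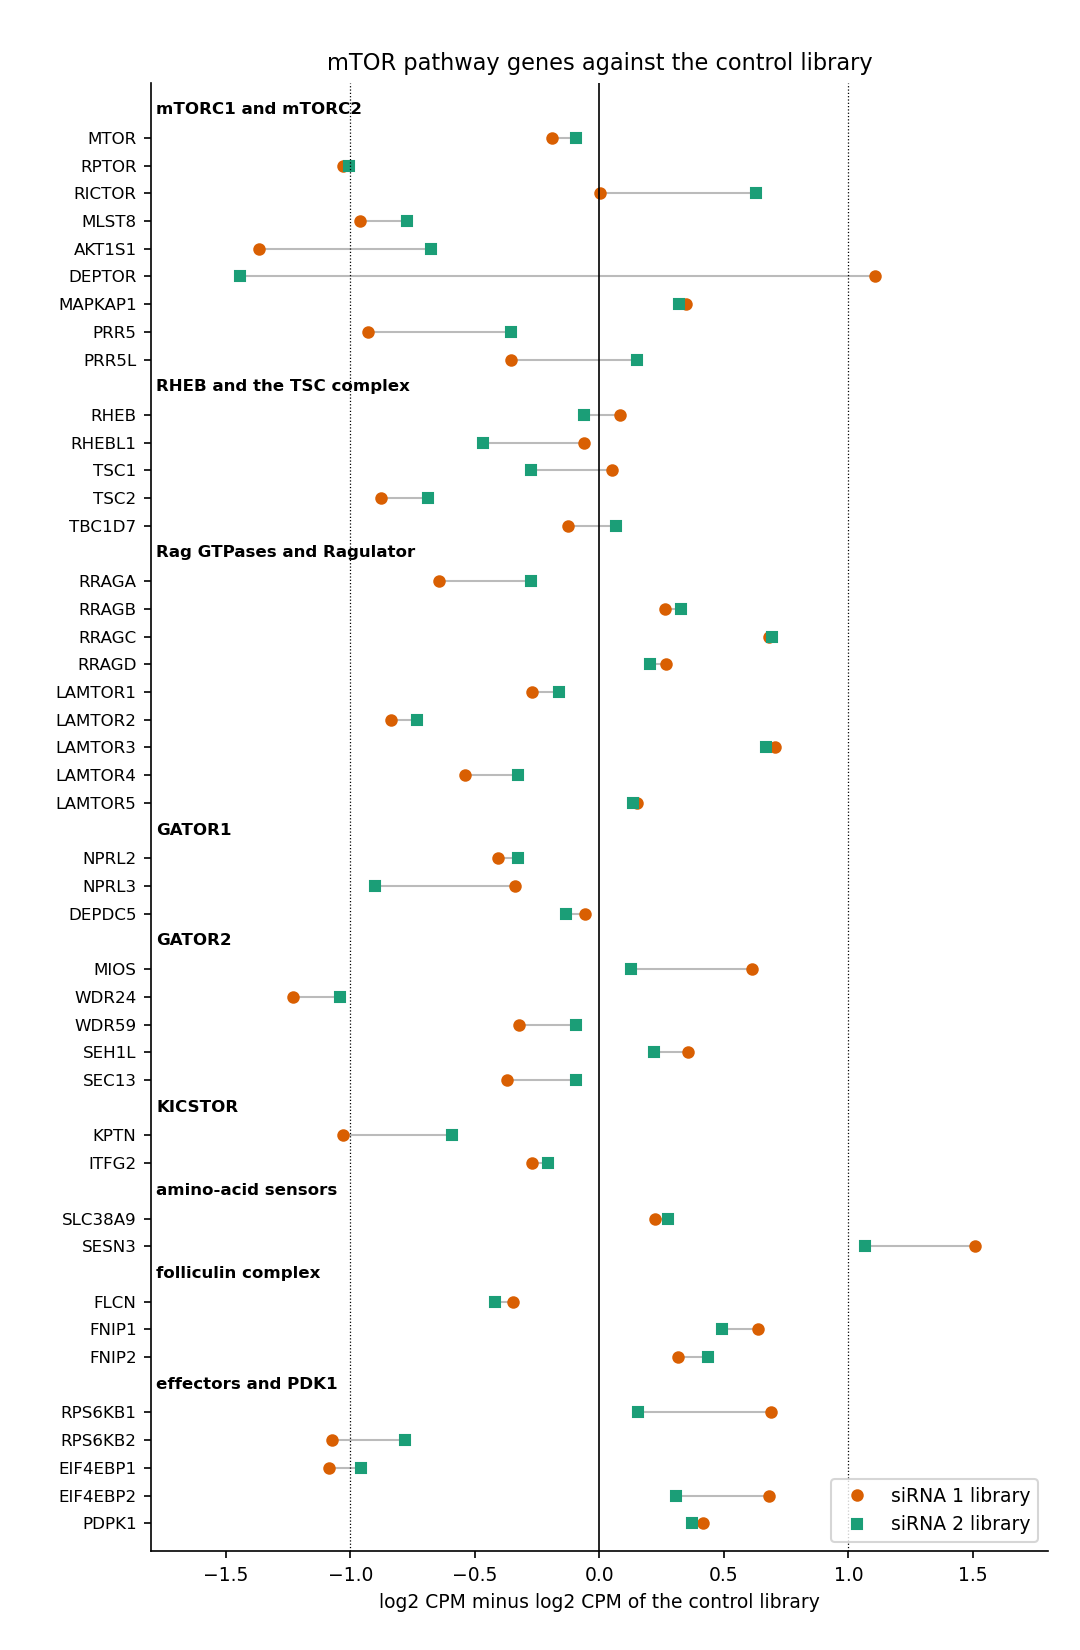
Log2 difference of each siRNA library from the control library (x axis, log2 CPM) for the 43 genes, grouped by complex. SESN3 lies farthest right with both siRNAs, WDR24 and RPTOR lie beyond 2-fold on the left, and DEPTOR has its 2 libraries on opposite sides of 0.

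Among the subunits of the mTOR complexes, the kinase MTOR had 3392, 2931 and 3261 counts, or 14, 11.2 and 12.6 FPKM (counts scaled for gene length and library size). Its libraries spanned a narrow range, with differences of -0.19 with siRNA 1 and -0.09 with siRNA 2, and its fold change turned to 0.03 with the trend on GC content entered as an offset (a GC offset). RPTOR (ENSG00000141564, chr17:80544819-80966371), the scaffold that brings substrates to complex 1, had 1037, 501 and 529 counts. The control was the highest of the 3 libraries, 2.04-fold above siRNA 1 and 2.01-fold above siRNA 2, while the 2 siRNA libraries were nearly level. The log2 fold change of RPTOR was -1.02 ± 0.214 (SE), with an adjusted p of 0.114 in edgeR's quasi-likelihood test and of 0.0471 in DESeq2.

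RICTOR, the scaffold of complex 2, had 923, 913 and 1466 counts. Here siRNA 2 stood apart, with a difference of 0.63, while siRNA 1 was level with the control at 0.00, and its fold change turned to -0.18 with a GC offset. MAPKAP1, the subunit of complex 2 that helps it recognise AKT, had 1581, 1988 and 2026 counts, above the control in both siRNA libraries. MLST8, a subunit of both complexes, had 574, 290 and 344 counts, and the control was the highest, but its log2 fold change of -0.87 turned to 0.09 with a GC offset. AKT1S1, which encodes the complex 1 inhibitor PRAS40, had 1786, 682 and 1147 counts. The control exceeded both, but the siRNA libraries were themselves unequal, with differences of -1.37 and -0.68 (edgeR adjusted p = 0.148).

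DEPTOR, which binds mTOR in both complexes and restrains it, was the gene of lowest level, with 14, 32 and 4 counts. These correspond to 0.796 CPM in the control (95% Poisson interval 0.435 to 1.34), 1.67 with siRNA 1 (1.14 to 2.36) and 0.212 with siRNA 2 (0.0579 to 0.544). The siRNA libraries lay on either side of the control, 2.55 log2 units from each other, so DEPTOR had no shared direction. The intervals cover counting error only. PRR5 and PRR5L encode related subunits of complex 2. PRR5 had 135, 69 and 108 counts and turned to 0.18 with a GC offset, and PRR5L had 443, 341 and 506, the control lying between its siRNA libraries. PRR5 shares 17.8% of its exon bases with the read-through gene PRR5-ARHGAP8, so its counts are uncertain.

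RHEB, the small GTPase that activates complex 1, had 1762, 1842 and 1732 counts, with differences of 0.08 with siRNA 1 and -0.06 with siRNA 2. The direction of its small fold change turned under several scalings: 0.01 in edgeR, and -0.09 with scaling by total count. RHEBL1, a related GTPase, had 145, 137 and 107 counts and turned to 0.08 with a GC offset. Of the TSC complex, which switches RHEB off, TSC1 had 890, 911 and 755 counts, and the control lay between the siRNA libraries. TSC2, its GTPase-activating subunit, had 999, 536 and 635, with the control highest. TBC1D7, the third subunit, had 92, 83 and 99 and was level across the libraries within counting error.

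The counts of RHEB have a limit of their own, since the genome carries processed copies of its messenger RNA. RHEBP1 (chr10:46634911-46635466) had 2741, 5482 and 4283 counts and RHEBP2 (chr10:47706203-47706802) had 1429, 1239 and 1169. RHEB thus held 29.7%, 21.5% and 24.1% of the counts of the 3 loci together. The RHEB coding sequence and RHEBP1 agree at 547 of 552 bases, and RHEBP2 gave the same number, with an identical run of 184 bases. A stretch of the RHEB coding sequence, bases 400 to 489 from the start codon, is shown beside RHEBP1 because it holds 2 of the few bases, in capitals, by which a read could be assigned.
RHEB: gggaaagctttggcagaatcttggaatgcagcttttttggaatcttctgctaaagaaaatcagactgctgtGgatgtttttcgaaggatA
RHEBP1: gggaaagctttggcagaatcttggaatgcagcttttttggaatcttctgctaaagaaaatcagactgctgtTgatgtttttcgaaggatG
With the 3 loci summed, the counts were 5932, 8563 and 7184, and the log2 differences were 0.55 with siRNA 1 and 0.24 with siRNA 2. How the authors assigned reads that fit several places was not given in the sources used here, so the split between RHEB and its copies is uncertain.

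**Figure D2:**
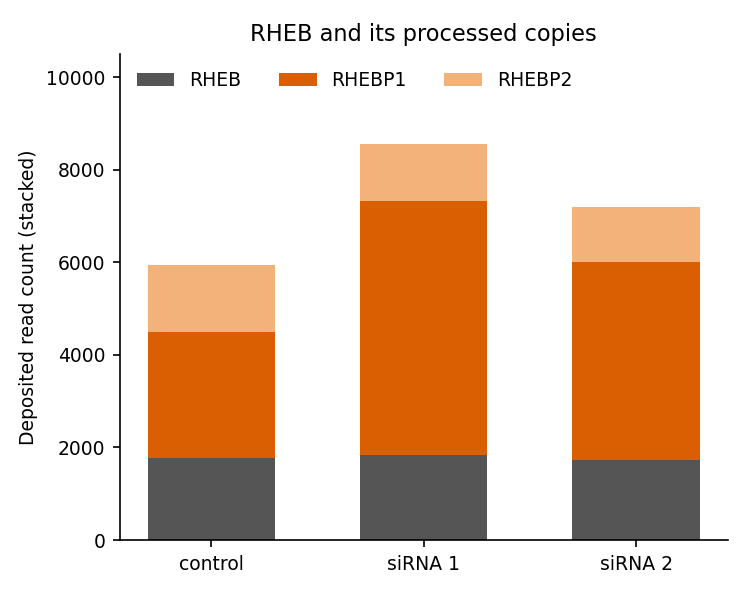
Deposited read counts (y axis) of RHEB and its processed copies RHEBP1 and RHEBP2, stacked for each of the 3 libraries. The RHEB segment stays between 1732 and 1842 counts, and the RHEBP1 segment is 2741 in the control and 5482 with siRNA 1. RHEBP1 and RHEBP2 are identical over 556 aligned bases, so the split between their segments is uncertain.

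The Rag GTPases pair A or B with C or D. RRAGA had 891, 562 and 755 counts, the control being highest, and its paralog RRAGB had 95, 113 and 123, the control being lowest. RRAGC (ENSG00000116954) had 501, 795 and 832 counts, 1.61-fold above the control with each siRNA, at an edgeR adjusted p of 0.153. RRAGD had 664, 789 and 785 counts. Of the dimer partners, RRAGC and RRAGD were therefore both above the control with both siRNAs, though RRAGD turned to -0.12 with a GC offset.

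Ragulator, the lysosomal scaffold of the Rag GTPases, has 5 subunits among these genes, and they did not share a direction. LAMTOR1, which anchors the complex in the lysosomal membrane, had 947, 775 and 869 counts. LAMTOR2 (ENSG00000116586, chr1:156054752-156058510) had 496, 273 and 306 counts, and LAMTOR4 had 632, 429 and 517. LAMTOR1, LAMTOR2 and LAMTOR4 were all highest in the control, but with a GC offset the fold changes of LAMTOR1 (0.19) and LAMTOR4 (0.24) turned. LAMTOR3 had 346, 558 and 566 counts, 1.63-fold and 1.59-fold above the control, and LAMTOR5 had 563, 618 and 635. LAMTOR2 and LAMTOR3, which form a dimer within Ragulator, thus lay on opposite sides of the control as measured. The differences were -0.84 and -0.73 for LAMTOR2 (edgeR adjusted p = 0.134) and 0.71 and 0.67 for LAMTOR3. With a GC offset the log2 fold change of LAMTOR2 went from -0.79 to -0.57, and that of LAMTOR3 from 0.69 to 0.19.

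All 3 subunits of GATOR1, the complex that switches RRAGA and RRAGB off, were highest in the control, as were 41.6% of all genes tested. NPRL2 had 295, 219 and 241 counts, NPRL3 had 651, 507 and 357, and DEPDC5 had 329, 312 and 308, which were level within counting error. None of the 3 had an unadjusted p under 0.05 in edgeR, and with a GC offset their log2 fold changes turned to 0.05, 0.21 and 0.11. NPRL3 overlaps MPG on the opposite strand, which had 730, 208 and 282 counts, and whether strand was used in counting was not given in the sources used here.

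GATOR2 opposes GATOR1. WDR24 (ENSG00000127580, chr16:684622-690444), the subunit with the largest difference among the 5, had 355, 148 and 176 counts. The control was 2.35-fold above siRNA 1 and 2.06-fold above siRNA 2, at an edgeR adjusted p of 0.12. It shares 35.7% of its exon bases with Z92544.2 on the opposite strand, which had only 16, 15 and 12 counts. WDR59 had 456, 359 and 438 counts and SEC13, which also serves in the COPII coat, had 947, 723 and 911. Both were highest in the control. MIOS had 528, 798 and 593 counts, and SEH1L, also a nuclear pore protein, had 3116, 3937 and 3727, both lowest in the control. With a GC offset the log2 fold change of MIOS went from 0.39 to 0.04, and that of SEH1L turned to -0.12.

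KPTN and ITFG2 belong to KICSTOR, which tethers GATOR1 to the lysosome. KPTN had 120, 57 and 81 counts, and ITFG2 had 548, 448 and 487, both highest in the control. With a GC offset the log2 fold change of KPTN went from -0.81 to -0.07, and that of ITFG2 from -0.24 to -0.01. Of the amino-acid sensors, SLC38A9, the lysosomal arginine sensor, had 305, 352 and 380 counts and turned to -0.30 with a GC offset. SESN3 (ENSG00000149212, chr11:95165513-95232541), a member of the sestrin family that binds GATOR2, had 874, 2455 and 1882 counts, or 4.03, 10.4 and 8.11 FPKM. Both siRNA libraries stood well above the control, 2.84-fold with siRNA 1 and 2.09-fold with siRNA 2, and siRNA 1 was the higher. The log2 fold change of SESN3 was 1.31 ± 0.269 (SE), with an adjusted p of 0.113 in edgeR's quasi-likelihood test and of 0.00479 in DESeq2. Of the other sestrins, SESN2, the leucine sensor, had 560, 324 and 348 counts, and SESN1 had 205, 291 and 186. With a GC offset the log2 fold change of SESN2 went from -0.75 to -0.09.

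FLCN, the folliculin subunit that acts on RRAGC and RRAGD, had 696, 539 and 534 counts and was highest in the control. Its partners lay on the other side as measured: FNIP1 had 1677, 2575 and 2420 counts, and FNIP2 had 421, 518 and 585. FNIP1 was 1.56-fold and 1.40-fold above the control. With a GC offset the contrast was gone, the log2 fold changes being 0.03 for FLCN, 0.10 for FNIP1 and 0.06 for FNIP2.

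Among the effectors, each pair of paralogs was split as measured, and RPS6KB1 turned to -0.05 with a GC offset. RPS6KB1, which encodes the main S6 kinase, had 750, 1196 and 857 counts, and RPS6KB2 had 829, 388 and 495. EIF4EBP1 (ENSG00000187840), which encodes a repressor of cap-dependent translation, had 1364, 633 and 720 counts, with differences of -1.09 and -0.96, an adjusted p of 0.114 in edgeR's quasi-likelihood test and of 0.033 in DESeq2. EIF4EBP2, its paralog, had 6036, 9544 and 7674 counts, the control being lowest. PDPK1, the kinase that activates AKT and the S6 kinases, had 851, 1120 and 1131 counts. It is near-identical to PDPK2P, which had 54, 52 and 60 counts.

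Exon overlap with another annotated gene touched at least 10% of the exon bases of 10 of the 43: DEPDC5, FLCN, ITFG2, LAMTOR4, LAMTOR5, NPRL2, PDPK1, PRR5, RRAGC and WDR24. Their counts are uncertain to that extent. For ITFG2 the partner on the opposite strand, FOXM1, had 2195, 3062 and 4452 counts, far above ITFG2 itself, whereas the partner of RRAGC, AL139260.2, was at 0 in every library.

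Levels per length spanned a wide range in the control library. EIF4EBP1 was highest at 72.3 FPKM, before EIF4EBP2 at 47.3, RRAGA at 31.9, RHEB at 19.3 and MTOR at 14, and DEPTOR was lowest at 0.256, below TBC1D7 at 0.445 and PRR5 at 0.629. In both siRNA libraries the first 2 places were exchanged. EIF4EBP1 stood at 30.8 FPKM with siRNA 1 and 35.6 with siRNA 2, and EIF4EBP2 at 68.7 and 56.2.

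**Figure D3:**
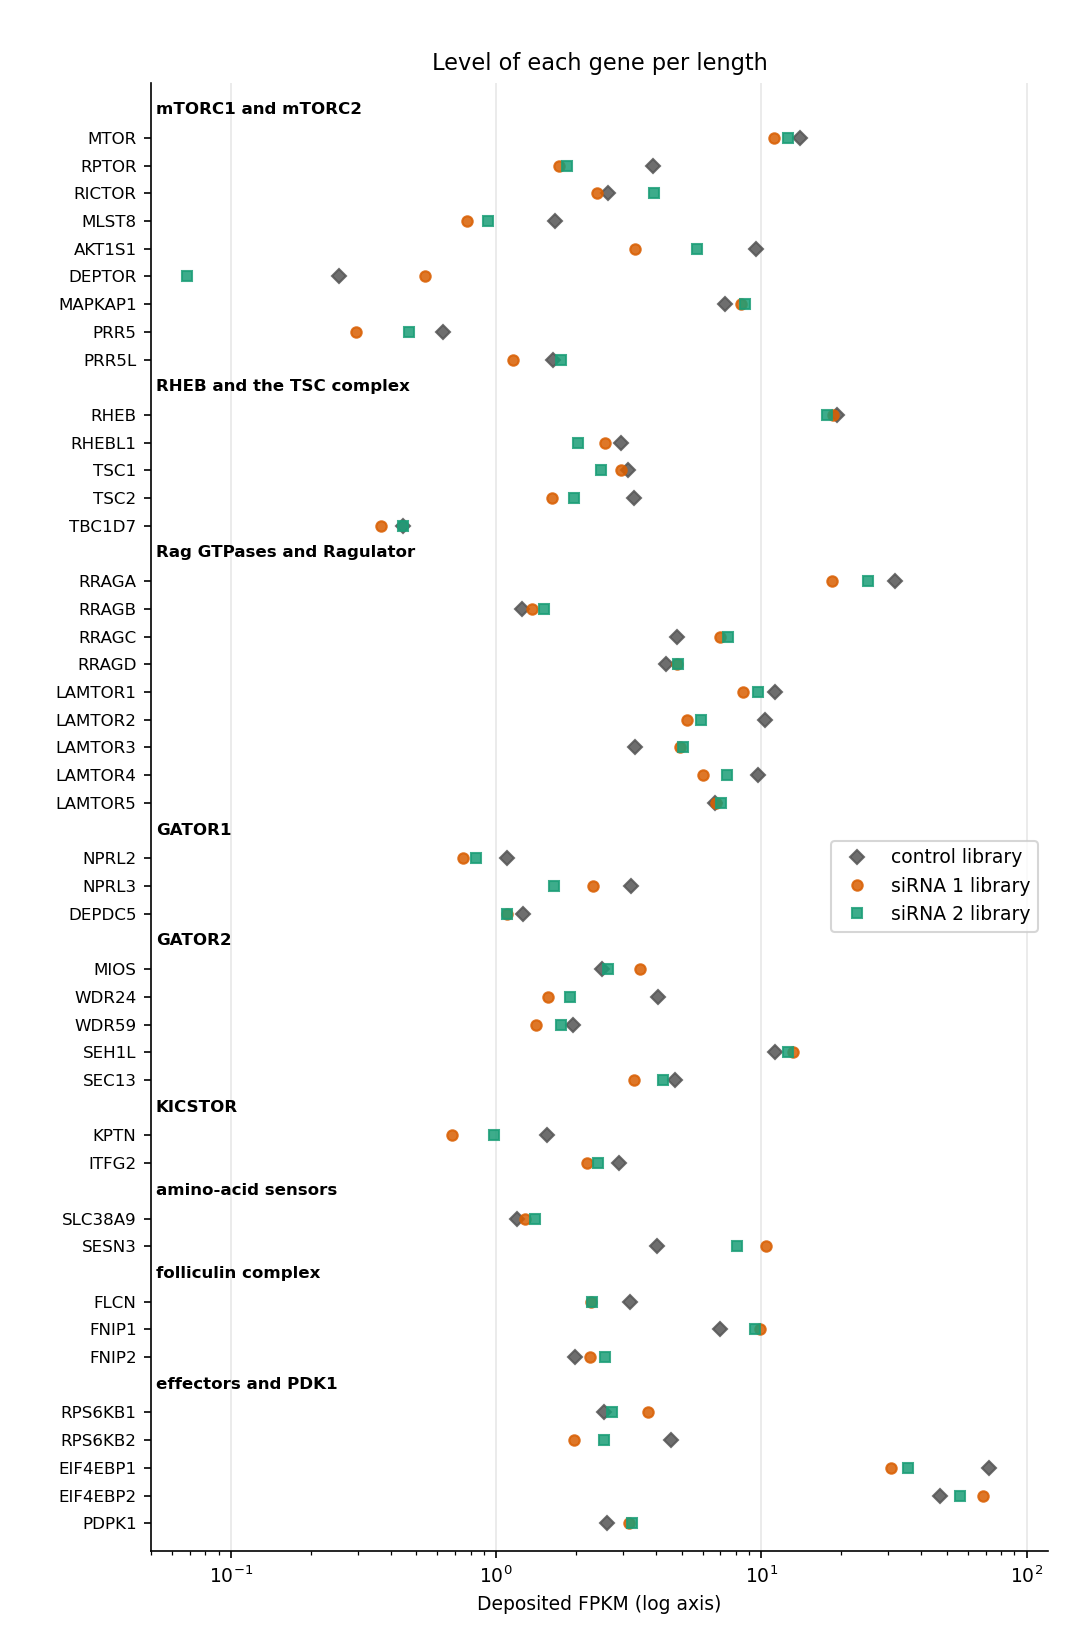
Deposited FPKM (x axis, log scale) of the 43 genes in the control library (grey diamonds), the siRNA 1 library (orange circles) and the siRNA 2 library (green squares), grouped by complex. EIF4EBP1 is highest in the control at 72.3 FPKM and EIF4EBP2 highest with siRNA 1 at 68.7.

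The exchange could be put as a ratio within each library, which does not depend on library size. EIF4EBP2 over EIF4EBP1 was 0.654 for the control library, against 2.23 for siRNA 1 and 1.58 for siRNA 2. RPS6KB1 over RPS6KB2 was 0.559, 1.9 and 1.07, and RICTOR over RPTOR, the scaffolds of complexes 2 and 1, was 0.679, 1.39 and 2.12. TSC1 over TSC2 was 0.952, 1.82 and 1.27. For these 4 pairs the control ratio was below 1 and both siRNA ratios above it. The other pairs stayed on 1 side in all 3 libraries: RRAGA over RRAGB was 25.5, 13.5 and 16.7, and RRAGC over RRAGD 1.1, 1.46 and 1.54.

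**Figure D4:**
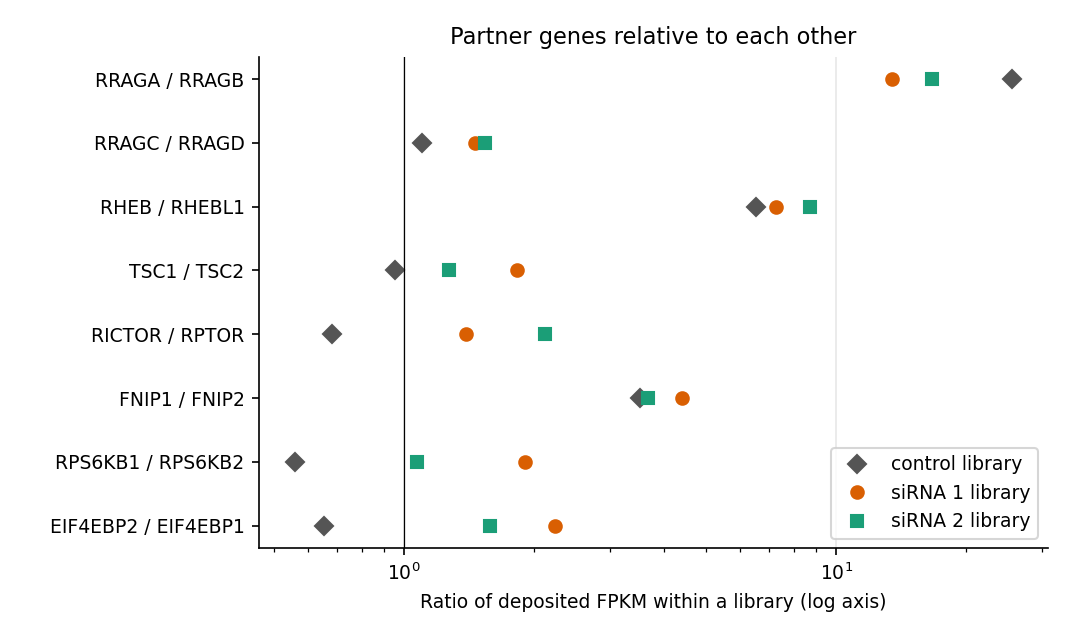
Ratio of FPKM between paired genes within each of the 3 libraries (log axis). For RICTOR over RPTOR, RPS6KB1 over RPS6KB2, EIF4EBP2 over EIF4EBP1 and TSC1 over TSC2 the control lies below 1 and both siRNA libraries above it.

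The position of a gene relative to the control went with the GC content of its transcript. The 43 genes ranged from 36.0% to 65.5% GC by their longest GENCODE transcript, with a median of 50.3% against 48.5% for all genes tested. Of 13 pathway genes under 45% GC, 12 lay above the control with both siRNAs and 0 below, with medians of 0.61 for siRNA 1 and 0.31 for siRNA 2. Of 14 genes at 55% or more, all 14 lay below the control with both, with medians of -0.95 and -0.68. All genes tested in the same GC groups had medians of 0.47 and 0.36 under 45%, and of -0.78 and -0.59 at 55% or more. Under 45% GC, 4671 of all 6227 genes tested lay above the control with both siRNAs, and 498 below. At 55% or more, 4235 of all 4921 lay below it with both, and 295 above. Across the 43 genes, Pearson's r between GC content and the difference was -0.831 for siRNA 1 and -0.777 for siRNA 2. Across the 17209 genes with a GC value it was -0.596 and -0.529. These describe genes that share 3 libraries and are not independent replicates.

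**Figure D5:**
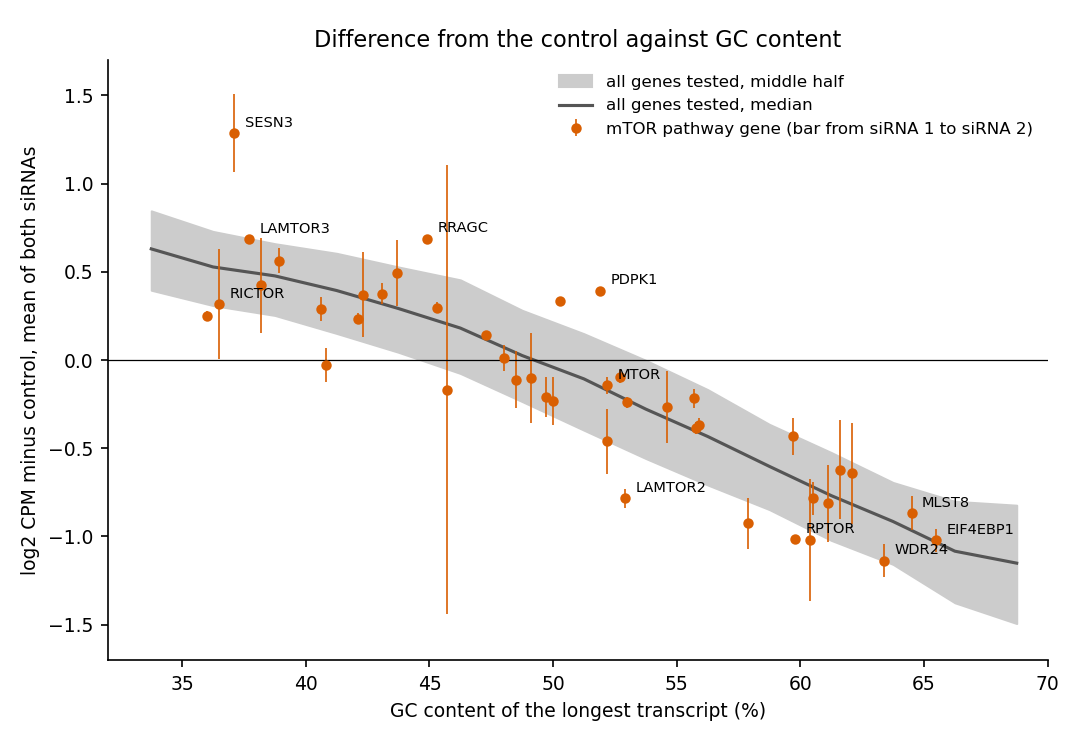
Mean log2 difference of the siRNA libraries from the control (y axis) against GC content of the longest transcript (x axis, %) for the 43 genes, with bars from siRNA 1 to siRNA 2, over the median and interquartile band of all genes tested. WDR24, RPTOR and EIF4EBP1 lie low at the GC-rich end, and SESN3, at 37.1% GC, lies above the band.

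With the trend on GC content over all genes removed from each library, the medians of the 43 became 0.01 with siRNA 1 and -0.05 with siRNA 2. Those of all genes tested were 0.01 and 0.01. RPTOR stood at -0.26 and -0.42, WDR24 at -0.21 and -0.27, and EIF4EBP1 at 0.07 and -0.08, and 0 of the 43 were 2-fold outside the control, against 4.74% of all genes (3.33% higher and 1.41% lower). The control lay below both siRNA libraries for 16 and above both for 14, against 37.3% and 35.2% of all genes. SESN3 stood at 0.92 and 0.61, LAMTOR2 at -0.59 and -0.54, PDPK1 at 0.60 and 0.51, and RRAGC at 0.42 and 0.48. In that edgeR fit, 0 of all 17263 genes tested passed the adjusted threshold, so the 0 among the pathway genes says nothing particular to them. At an unadjusted p under 0.05 there were 3 (SESN3, PDPK1 and LAMTOR2), or 6.98%, against 10.1% of all genes (6.16% higher and 3.97% lower). The ratio of EIF4EBP2 to EIF4EBP1, relative to the control, came to 1.21 and 1.1 on this scale, and that of RICTOR to RPTOR to 0.785 and 1.49. That of RPS6KB1 to RPS6KB2 came to 1.5 and 1.02, and that of TSC1 to TSC2 to 1.05 and 0.847, the latter turned for siRNA 2. With 1 control library, the GC trend and the siRNA treatment cannot be told apart.

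Promoters of these genes were read for the E-box CACGTG, which is its own reverse complement and so is found on both strands at once. It is the motif bound by MYC and by the lysosomal regulators TFEB and TFE3. MYC had 281, 2447 and 2709 counts, TFEB 123, 70 and 79, and TFE3 2921, 1879 and 2074. With a GC offset the log2 fold change of TFEB went from -0.73 to -0.20, and that of TFE3 turned from -0.57 to 0.10. The part of MYC, TFEB and TFE3 in the pathway's values was not tested. Of the 43 genes, 35 had a promoter entry in the RefSeq table (build GRCh38.p14). MLST8, RRAGD, DEPTOR, AKT1S1, RRAGA, WDR24, RHEBL1 and EIF4EBP1 had none. In the 250 bases before the start, 7 of the 35, or 20%, held the motif, against 11.2% of 10862 tested genes. FNIP1 and RRAGB held it more than once. The promoters of FNIP1 (chr5:131797018-131797267, minus strand), RRAGC (chr1:38859773-38860022, minus strand), RRAGB (chrX:55717499-55717748, plus strand) and TSC2 (chr16:2047735-2047984, plus strand) are shown, with the motif in capitals, because they hold it in genes that as measured lay above (FNIP1, RRAGC and RRAGB) or below (TSC2) the control.
FNIP1 promoter: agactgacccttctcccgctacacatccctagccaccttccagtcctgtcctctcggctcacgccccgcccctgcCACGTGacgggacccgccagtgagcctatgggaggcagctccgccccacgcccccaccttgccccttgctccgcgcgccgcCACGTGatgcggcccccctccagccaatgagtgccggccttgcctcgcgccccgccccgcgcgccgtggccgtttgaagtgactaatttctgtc
RRAGC promoter: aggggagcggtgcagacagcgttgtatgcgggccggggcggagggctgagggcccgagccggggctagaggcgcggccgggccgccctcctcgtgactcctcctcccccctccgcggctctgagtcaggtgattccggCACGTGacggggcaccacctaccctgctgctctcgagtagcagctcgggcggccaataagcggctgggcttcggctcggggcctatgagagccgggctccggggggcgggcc
RRAGB promoter: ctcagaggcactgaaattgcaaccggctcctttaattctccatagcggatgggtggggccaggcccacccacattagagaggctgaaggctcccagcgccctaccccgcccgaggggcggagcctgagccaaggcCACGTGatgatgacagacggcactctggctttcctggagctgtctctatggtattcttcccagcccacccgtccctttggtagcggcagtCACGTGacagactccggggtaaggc
TSC2 promoter: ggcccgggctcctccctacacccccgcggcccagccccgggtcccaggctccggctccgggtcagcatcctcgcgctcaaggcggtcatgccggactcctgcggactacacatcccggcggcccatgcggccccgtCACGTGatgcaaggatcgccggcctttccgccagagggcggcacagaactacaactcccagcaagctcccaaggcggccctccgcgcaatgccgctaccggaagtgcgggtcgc
FNIP1, RRAGC and RRAGB lay above the control with both siRNAs. TSC2, LAMTOR1, LAMTOR4 and PRR5, the other genes holding the motif, lay below it with both as measured. With the GC trend removed, LAMTOR1, LAMTOR4 and PRR5 turned to 0.19, 0.24 and 0.18 and TSC2 stood at -0.07, while FNIP1, RRAGC and RRAGB stood at 0.10, 0.45 and 0.08. A match is a run of letters in this window and does not show binding.

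Genes around the pathway were taken from lists of 85 further genes, of which 83 were tested. edgeR's quasi-likelihood test passed 1, PIK3R2, a regulatory subunit of PI3K, with 774, 14 and 24 counts and an adjusted p of 0.0174. With the GC trend removed 0 of the 83 passed, and 0 of all genes tested did. The log2 fold change of PIK3R2 went from -5.35 to -4.43. It shares 87.2% of its exon bases with another gene, so its count is uncertain. At an unadjusted p under 0.05, 14 were higher and 15 lower, together 34.9% against 26% of all genes (11.5% higher and 14.5% lower). With the GC trend removed 4 of the 83 were past that threshold, or 4.82%, against 10.1% of all genes. Of 26 genes of PI3K, AKT and AMPK signalling, 6 were higher (23.1%), the AMPK kinase PRKAA1 among them, and 6 lower (23.1%), AKT1 and DDIT4 among them, shares to be read against those 11.5% and 14.5%. PRKAA1 had 1914, 3614 and 2688 counts, AKT1 had 2783, 1556 and 1679, and DDIT4, an inhibitor acting through TSC, had 622, 342 and 394. Their log2 fold changes with the GC trend removed were 0.12 (from 0.71), 0.03 (from -0.79) and -0.20 (from -0.77).

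Of 16 subunits of the v-ATPase, the lysosomal proton pump that Ragulator binds, 3 were higher at that unadjusted threshold (18.8%, against 11.5% of all genes) and 0 lower (against 14.5%), and of the 3 only ATP6V1H was past it with the GC trend removed. ATP6V1H had 423, 809 and 851 counts, with differences of 0.95 and 0.97 that stood at 0.87 and 0.90 after the GC trend was removed. By position alone, 9 of the 16 lay above the control with both siRNAs (56.2%, against 41.9% of all genes) and 6 below (37.5%, against 41.6%). ATP6V0C, 1 of those 6, had 1436, 305 and 1088 counts, its siRNA libraries differing by more than 2-fold. It shares 57.5% of its exon bases with another gene, so its count is uncertain. Among 11 amino-acid transporters, 2 were higher at the unadjusted threshold (18.2%, against 11.5% of all genes) and 3 lower (27.3%, against 14.5%). With the GC trend removed the 1 past the threshold was SLC15A4, which was none of those 5. SLC7A5, a leucine carrier, had 21358, 11249 and 14022 counts, its fold change going from -0.77 to -0.02 with the trend removed, and SLC38A7 had 734, 422 and 187, the siRNA libraries differing from each other by more than 2-fold. Of 22 downstream genes tested, 2 were higher (9.09%, against 11.5%) and 4 lower (18.2%, against 14.5%), and 0 were past the threshold with the GC trend removed. ULK1, the autophagy kinase that complex 1 restrains, had 349, 190 and 180 counts and was highest in the control, but its fold change went from -0.92 to 0.03 with the trend removed.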

How the data were processed

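RNA-seq was analysed in 3 libraries of HCT116 cells: 1 control siRNA library and 2 libraries with different DUOX2 siRNAs, treated as 2 replicates of 1 group because the labels name the same target. Per the file headers, the deposited table holds read counts and FPKM per gene for each library, and the authors made both from their reads. The submitters' processing notes name Bowtie 0.12.2 and the builds GRCh38 and mm8 with no role. For the counter, strand setting and multiply mapped reads, the sources used here give nothing. Gene coordinates were identical to GENCODE 29 for 97.6% of the genes found there and for 40 of the 43 pathway genes.

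Counts were tested with edgeR 4.0.16 in R 4.3.3 (filterByExpr with a minimum count of 10, TMM, quasi-likelihood, Benjamini-Hochberg over 17263 genes, 1 residual degree of freedom). Total counts ran from 17589502 to 19130768, where 3 counts equal 0.171 to 0.157 CPM. The script was tested on simulated data. Alternatives were DESeq2 1.42.0, limma 3.58.1 on log2 FPKM with pseudocounts of 1 and 0.1 (mean of at least 1 FPKM), other filters and scalings, prior counts of 0.5 and 5, a lowess trend on GC content (fraction 0.3) as offset, sums with processed copies, and each siRNA library left out. All 43 genes were named. From each further list, up to 3 genes a side were to be named among those at least 2-fold outside the control with both siRNAs; the other genes of those lists named in the text were picked with their values in view. The pathway genes and all lists were chosen with earlier results of these data known. Columns of other samples left unused numbered 0.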

Additional observations from a re-analysis of the deposited data

How the results depend on the processing

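With 1 control library, no setting tests the control's own spread. No paired analysis was possible because the control has a single library and the groups share fewer than 2 replicate numbers. The number of pathway genes passing was 0 in edgeR under the main settings and 3 in DESeq2; with either siRNA library left out 1 library faces 1, so no test was made. The number 2-fold outside the control was 3, and became 0 with the GC trend as offset, 1 with limma on log2(FPKM + 1), and 4 to 8 with 1 siRNA library left out. The median log2 fold change was -0.1023; it was 0.0273 with the GC offset, -0.1271 with at least 1 CPM in every library, -0.2045 and -0.1566 with limma at pseudocounts of 0.1 and 1, -0.2063 with total count scaling, and -0.1268 to -0.0958 with a library left out.

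The sign of the fold change turned for 16 genes with the GC offset, where the values were 0.0318 for MTOR, -0.1756 for RICTOR, 0.0876 for MLST8, 0.1792 for PRR5, -0.0580 for RHEB, 0.0838 for RHEBL1, -0.1161 for RRAGD, 0.1884 for LAMTOR1, 0.2374 for LAMTOR4, 0.0458 for NPRL2, 0.2146 for NPRL3, 0.1144 for DEPDC5, -0.1207 for SEH1L, -0.3016 for SLC38A9, 0.0273 for FLCN and -0.0491 for RPS6KB1. RHEB also turned with limma at pseudocounts of 0.1 (-0.0897) and 1 (-0.0856) and with total count scaling (-0.0898). With 1 siRNA library left out, 5 genes turned: DEPTOR ran from -1.4418 to 1.1057, PRR5L from -0.3569 to 0.1530, RHEB from -0.0629 to 0.0828, TSC1 from -0.2748 to 0.0524 and TBC1D7 from -0.1268 to 0.0662. The cause was not tested. The other 23 genes kept their sign under every alternative run. Summing a gene with its processed copies, chosen for single genes after seeing the data, turned none.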
